A study of Mus musculus with 8 samples.

Results

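The DNA replication and S phase module comprised 41 mouse genes for origin licensing, helicase activation, DNA polymerases and primase, the sliding clamp and its loader, lagging-strand joining, deoxynucleotide synthesis, chromatin assembly and G1/S control. They were chosen by gene symbol and function, with earlier results of these data known, and were 41 of the 55401 genes counted. All 41 had enough counts to be tested, among 17470 tested genes. RNA came from bone marrow-derived macrophages (BMDM), which are grown from marrow progenitors in culture. The KO cultures were from Lyz2-Cre-Mettl3fl/fl mice, which carry Cre recombinase under the myeloid lysozyme gene Lyz2 and floxed alleles of Mettl3, the catalytic subunit of the m6A RNA methyltransferase. The WT cultures were from Mettl3fl/fl mice, so both genotypes carried the floxed alleles and Cre was present in the KO cultures only. The 4 groups were KO stimulated, KO PBS, WT stimulated and WT PBS, with 2 libraries each. Stimulated cells received LPS, a bacterial ligand of the receptor TLR4, at 50 ng/ml overnight and then nigericin, an ionophore that drains potassium from cells and so triggers NLRP3, at 10 µM for 3 h according to the sample labels.

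Replication starts when origins bound by the origin recognition complex are licensed by CDC6 and CDT1, which load the MCM2-7 helicase in G1. In S phase CDC45 and the GINS complex convert MCM2-7 into the active helicase, primase and DNA polymerases copy the strands, and PCNA, loaded by replication factor C, keeps the polymerases on DNA. Many of these genes are transcribed through E2F sites once cyclin-dependent kinases release E2F from RB proteins, and differentiated macrophages are known for low rates of division unless growth factors such as CSF1 drive them.

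Because many replication genes are E2F targets, the promoters are shown first. RefSeq windows (build GRCm38.p6, 250 bases before to 50 after the annotated start) were found for 34 of the 41 members. The words TTTCCCGC, TTTGGCGC, TTTCGCGC and TTTGCCGC were searched on both strands, and overlapping matches were allowed. At least 1 of the 4 words was present in 12 of the 34 members (35.3%), against 2.60% of the 27025 genes in the table. The following stretches, 5′ to 3′ on the strand of the gene, surround words upstream of the start, with the words in capitals. They come from the helicase subunits Mcm5 (chr8:75109336-75109387, plus strand), Mcm6 (chr1:128359725-128359835, minus strand) and Mcm7 (chr5:138172021-138172068, minus strand), the licensing factor Cdc6 (chr11:98907993-98908040, plus strand), the GINS subunit Gins3 (chr8:95633498-95633545, plus strand) and the polymerase alpha catalytic subunit Pola1 (chrX:93632266-93632313, minus strand).
Mcm5: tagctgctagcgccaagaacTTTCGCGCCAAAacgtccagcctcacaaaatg
Mcm6: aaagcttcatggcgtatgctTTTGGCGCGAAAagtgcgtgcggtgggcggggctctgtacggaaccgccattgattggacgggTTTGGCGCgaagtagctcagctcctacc
Mcm7: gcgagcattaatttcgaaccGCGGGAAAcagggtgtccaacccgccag
Cdc6: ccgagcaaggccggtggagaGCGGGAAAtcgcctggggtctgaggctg
Gins3: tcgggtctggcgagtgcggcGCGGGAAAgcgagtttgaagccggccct
Pola1: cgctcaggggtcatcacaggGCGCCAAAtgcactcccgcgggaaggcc
In Mcm5 and in the upstream site of Mcm6, words on both strands overlap and form a run of 12 capitals. Of the 13 matched members called in at least 1 of the responses described below, 6 held a word, and of the 21 called in neither, 6 did. The box CCAAT, searched the same way, was in 20 of the 34 members (58.8%) and in 41.1% of all genes.

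**Figure D1:**
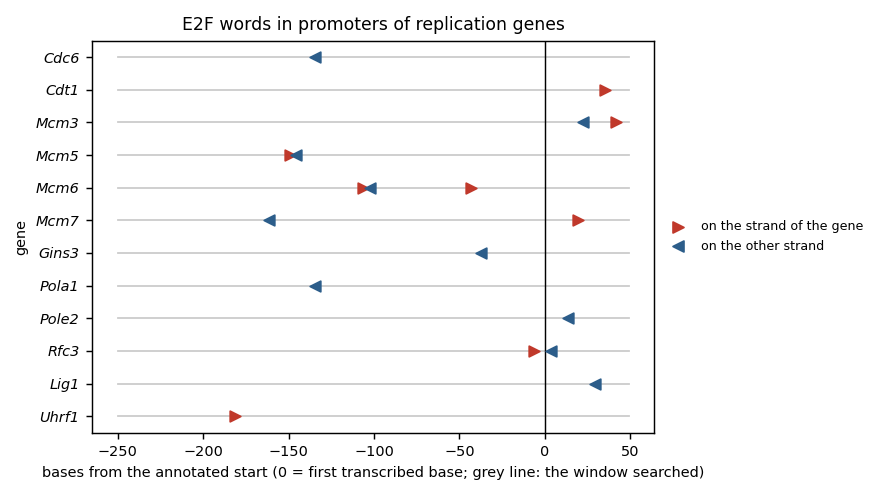
Positions of the E2F words in the promoter windows of the 12 members that hold one. The horizontal axis gives bases from the annotated start, grey lines are the windows searched, and arrowheads point along the strand that carries the word. Mcm6 holds 3 words, all upstream, whereas the words of Cdt1, Mcm3, Pole2 and Lig1 lie after the start.

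The libraries held 55032057 to 65487739 counts. Levels are CPM, that is counts scaled to 1000000 of composition-adjusted library size, and differences are log2 fold changes with their standard errors (SE). Adjusted p-values are from edgeR's quasi-likelihood test with Benjamini-Hochberg adjustment over all tested genes, and a gene was called at an adjusted p under 0.05. Nothing in the labels ties the libraries to separate animals or cultures, so the p-values reflect the spread among these libraries alone, and that spread may be technical. The macrophage markers Adgre1, Csf1r, Cd68, Itgam, Mertk, Fcgr1, Cd14 and Lyz2 were present in every library. They summed to 26660 to 28050 CPM in the 4 KO libraries, against 42180 to 48280 CPM in the 4 WT libraries. Most of the gap lay in Lyz2, the gene under which Cre is expressed, with 14740 to 17510 CPM in KO, against 32220 to 35400 CPM in WT. The 8 markers did not move together: by log2 fold change, 4 were higher and 4 lower in KO with PBS. After stimulation 3 were higher and 5 lower. Mettl3 had 9.08 and 7.87 CPM in stimulated KO libraries, against 28.2 and 23.4 CPM in stimulated WT libraries. With PBS it had 5.63 and 6.33 CPM in KO, against 13.6 and 13.3 CPM in WT. Mettl3 was therefore lower in KO in both treatments, by log2 fold changes of -1.60 (SE 0.14, adjusted p = 0.00283) after stimulation and -1.17 (SE 0.14, adjusted p = 0.0143) with PBS. The PBS call was lost without any 1 of the 4 PBS libraries (adjusted p up to 0.0805) and with those 4 libraries fitted alone (adjusted p = 0.0601). With stimulation Mettl3 was higher in both genotypes, by 0.94 (SE 0.14, adjusted p = 0.00162) in WT and 0.50 (SE 0.14, adjusted p = 0.0261) in KO. That KO call was lost with no composition factor and with only the KO libraries fitted (adjusted p up to 0.0611). The difference between the responses of Mettl3 was -0.44 (SE 0.19, adjusted p = 0.492). The counts cover the whole gene, and 18.4% of the Mettl3 exon bases are shared with Tox4.

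Summed over its 41 members, the module stayed within a narrow range in all 8 libraries. The sum was 771.2 and 752.4 CPM in stimulated KO and 803.7 and 787.3 CPM in KO with PBS. In WT it was 800.7 and 790.3 CPM after stimulation and 816.4 and 785.7 CPM with PBS. Within that sum, parts of the module moved in opposite directions. The 3 G1/S control genes summed to a mean of 74.4 CPM in stimulated KO, against 36.9 CPM with PBS. In WT that mean was 75.2 CPM, against 38.0 CPM with PBS. The 6 clamp and clamp loader genes had 251.4 CPM in stimulated KO, against 305.1 CPM with PBS, and in WT 299.1 CPM, against 336.4 CPM. In bulk RNA, fewer cells of a type and less RNA per cell cannot be told apart. Per kilobase of exon, Pcna was the most abundant member, with a mean over the 4 groups of 68.0 CPM per kb, followed by E2f1 with 15.1 and Mcm6 with 10.2 CPM per kb. The lowest were Cdc6 with 0.300, Mcm10 with 0.321 and Pole with 0.365 CPM per kb. The libraries of a group agreed closely for most members: the largest ratio between them had a median of 1.22 over the members and exceeded 1.5 in Cdt1, Tk1 and Fen1.

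**Figure D2:**
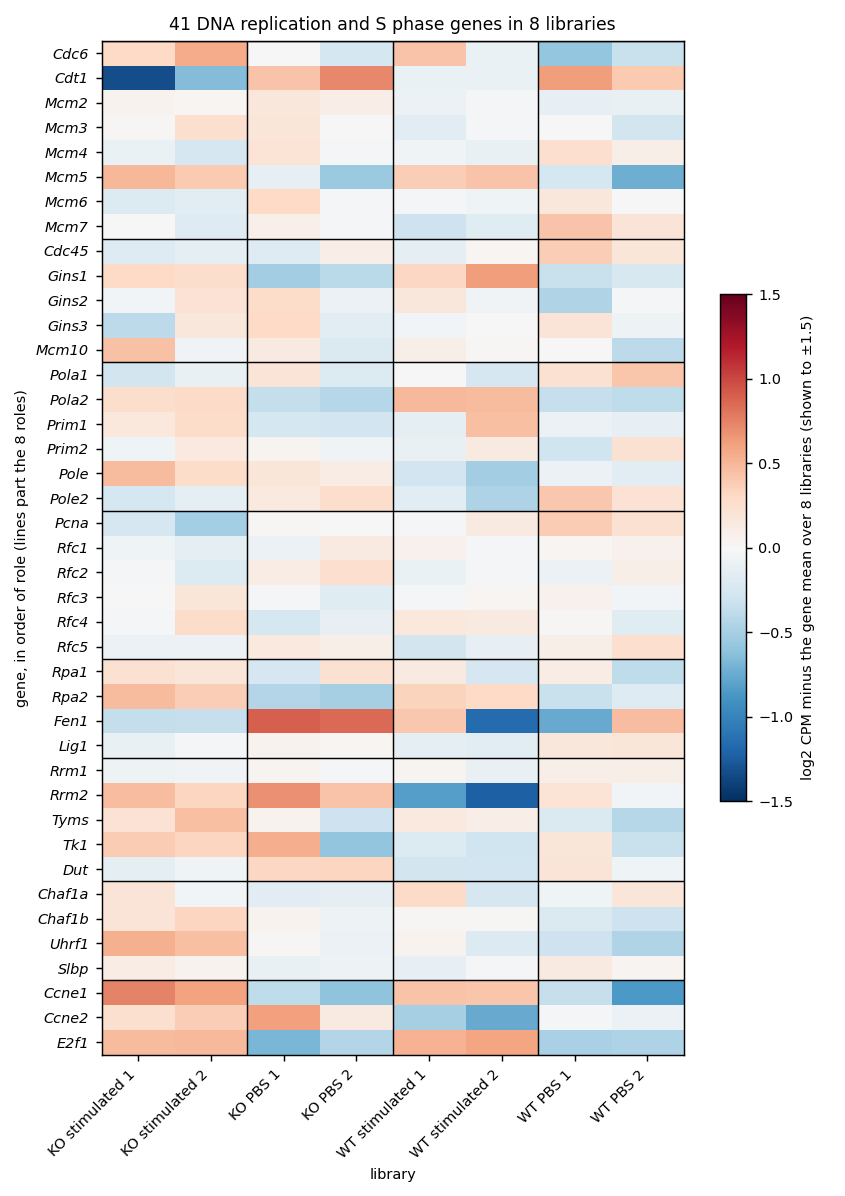
Each row is a member, grouped by role, and each column a library. Colours show the log2 CPM of the library minus the mean of that gene over the 8 libraries. E2f1 and Ccne1 are high in all 4 stimulated libraries, Rrm2 is low in both stimulated WT libraries, and most other rows are pale.

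Stimulation raised a small set of members in both genotypes while most of the module did not pass the test. In KO, 7 of the 41 members rose, set against 20.2% of all tested genes, and 2 fell, against 19.0% of all tested genes. In WT, 6 rose and 5 fell, against 20.6% and 20.0% of all tested genes. None of these counts is a larger share of the module than of all tested genes. The median log2 fold change of the members was 0.038 in KO and -0.029 in WT, beside -0.033 and -0.013 over all tested genes. The KO median had no stable sign: it was -0.041 without a composition factor, -0.032 with a filter of 5 CPM, -0.013 without KO PBS replicate 2 and -0.06 without KO stimulated replicate 2. The 6 members that rose in WT, Mcm5, Gins1, Pola2, Rpa2, Ccne1 and E2f1, also rose in KO, and 27 members were called in neither response. Stimulated libraries lay above PBS libraries without overlap for 16 members in KO and 13 in WT, against 35.6% and 34.6% of all tested genes. They lay below for 12 members in KO and 16 in WT, against 37.2% and 36.6%. Separation of the libraries alone is thus common and does not set a member apart. None of the 41 members was called for a difference between the responses, for which 0.103% of all tested genes were called higher and 0.395% lower in KO. At an unadjusted p under 0.05 that difference had 4 members (3 higher, 1 lower), and DESeq2 called 0. The share of all tested genes at that unadjusted cutoff is not given here, so nothing is read from the 4. Scaled by library size alone, without a composition factor, the all-gene median was -0.112 in KO and -0.197 in WT. The counts then became 6 higher and 5 lower in KO and 6 higher and 13 lower in WT.

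**Figure D3:**
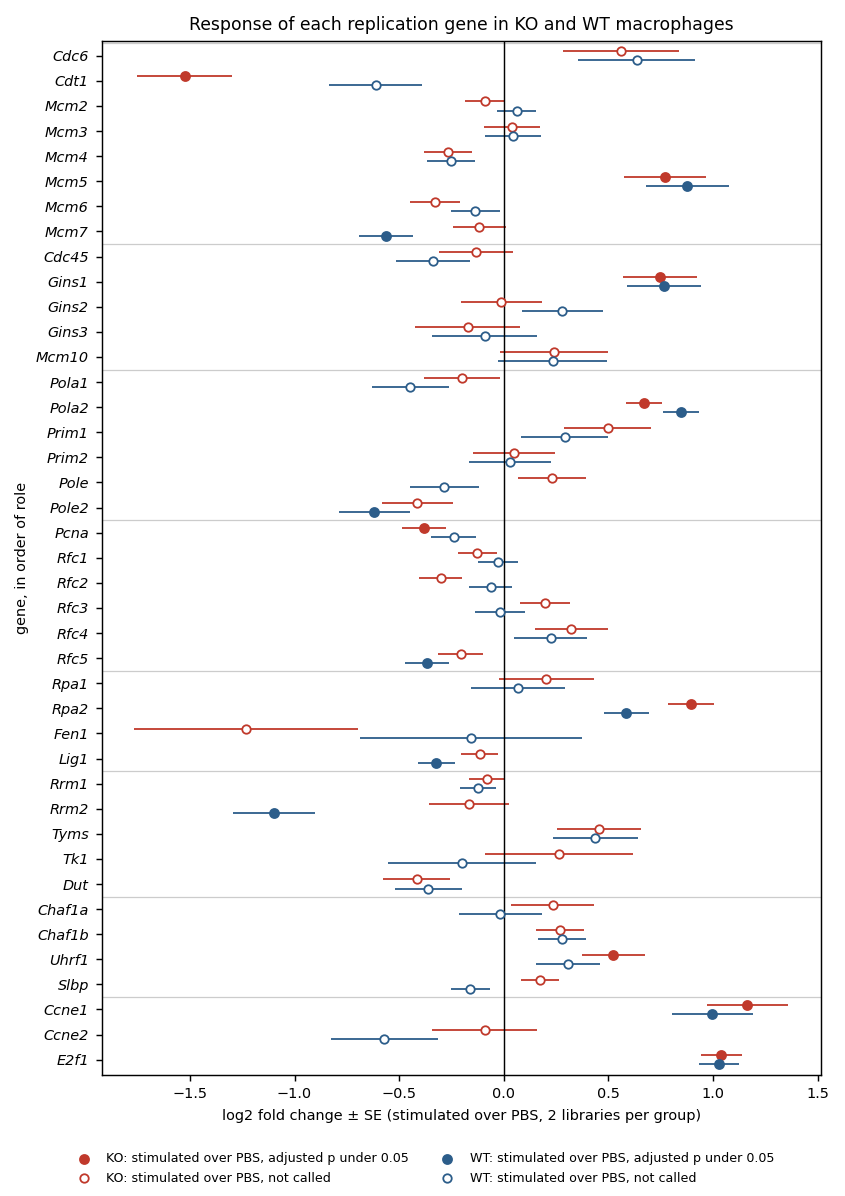
Log2 fold change of each member after stimulation in KO and in WT, with bars for the SE and members grouped by role. Filled points are called members and open points are not called, and most members are open in both genotypes. Ccne1, E2f1, Pola2 and Rpa2 lie to the right of 0 in both, Cdt1 lies far to the left in KO and Rrm2 far to the left in WT.

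Both E2f1 and Ccne1, which drive entry into S phase, rose in both genotypes. E2f1 encodes an activating E2F transcription factor and lies on chromosome 2 (GRCm38) at 154559407 to 154569892, minus strand. It had 62.01 and 62.2 CPM in stimulated KO libraries, against 27.6 and 32.8 CPM in KO with PBS. In WT it had 63.9 and 67.1 CPM after stimulation, against 31.8 and 32.3 CPM with PBS. All 4 stimulated libraries thus lay above all 4 PBS libraries, with log2 fold changes of 1.04 (SE 0.10, adjusted p = 0.000203) in KO and 1.03 (SE 0.10, adjusted p = 0.000211) in WT. Ccne1, the cyclin E that activates CDK2 at the G1/S transition, had 10.9 and 9.85 CPM in stimulated KO, against 4.97 and 4.26 CPM with PBS. Its WT levels were 8.75 and 8.62 CPM after stimulation, against 5.12 and 3.58 CPM with PBS. The increases of Ccne1 were 1.17 (SE 0.19, adjusted p = 0.00318) in KO and 1.00 (SE 0.19, adjusted p = 0.00616) in WT on the log2 scale, again without overlap. The other cyclin E gene, Ccne2, was scarce, at 0.946 to 2.45 CPM over all libraries, and was called in neither response (-0.09, SE 0.25, in KO and -0.57, SE 0.26, in WT). It shares 17.4% of its exon bases with Ints8.

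Among the licensing genes, single members moved in opposite directions. Mcm5, a helicase subunit, had 21.6 and 19.9 CPM in stimulated KO, against 14.0 and 10.3 CPM with PBS. Its WT levels were 19.7 and 20.5 CPM after stimulation, against 12.7 and 9.18 CPM with PBS. It rose by 0.77 (SE 0.20, adjusted p = 0.0193) in KO and 0.88 (SE 0.20, adjusted p = 0.0113) in WT. The call was lost without KO PBS replicate 2 or either stimulated KO library in the first case (adjusted p up to 0.0988), and without WT PBS replicate 2 or WT stimulated replicate 2 in the second (up to 0.0585). Mcm7, another subunit of the same ring, had 11.6 and 12.7 CPM in stimulated WT, against 19.4 and 16.5 CPM in WT with PBS. It fell in WT by 0.56 on the log2 scale (SE 0.13, adjusted p = 0.0121), a call lost without replicate 1 of either WT group (adjusted p up to 0.0804). The KO libraries of Mcm7 lay between 12.6 and 15.1 CPM, with a log2 fold change of -0.12 (SE 0.13, adjusted p = 0.518), and the difference between the responses was 0.45 (SE 0.18, adjusted p = 0.447). Mcm7 shares 7.25% of its exon bases with Ap4m1, which had 20.6 and 20.8 CPM in stimulated WT, against 28.1 and 32.4 CPM with PBS, and the part of Ap4m1 in the Mcm7 result was not tested. The other 4 helicase subunits, Mcm2, Mcm3, Mcm4 and Mcm6, had log2 fold changes between -0.33 and 0.06 over both responses, with no call.

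Cdt1, the loader of the MCM ring whose activity is confined to G1, gave the largest decrease of the module in KO. It had 7.40 and 11.8 CPM in stimulated KO, against 24.9 and 30.5 CPM in KO with PBS, a log2 fold change of -1.52 (SE 0.23, adjusted p = 0.0019). In WT it had 17.3 and 17.4 CPM after stimulation, against 28.7 and 24.3 CPM with PBS, which did not pass the test (-0.61, SE 0.22, adjusted p = 0.0665). Cdt1 was called lower in WT as well by DESeq2 (adjusted p = 0.0251), with only the WT libraries fitted (0.0168), with a filter of 5 CPM (0.0448), without a composition factor (0.0285) and without KO stimulated replicate 1 or 2 (0.0195 and 0.0194). Its stimulated libraries were below its PBS libraries in both genotypes, as for 37.2% of all tested genes in KO and 36.6% in WT. The difference between the responses was -0.91 (95% interval -1.66 to -0.16) and was not called either (adjusted p = 0.349). Between genotypes after stimulation Cdt1 differed by -0.85 (SE 0.23, adjusted p = 0.0904), which DESeq2 called lower in KO. Cdc6, the other loader, had 1.01 to 2.24 CPM over all libraries and was not called (0.56, SE 0.28, in KO and 0.64, SE 0.28, in WT).

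Of the 5 helicase activation genes, Gins1 alone was called. This GINS subunit had 3.85 and 3.76 CPM in stimulated KO, against 2.18 and 2.35 CPM with PBS. WT libraries gave 3.87 and 4.80 CPM after stimulation, against 2.47 and 2.63 CPM with PBS. The increases were 0.75 (SE 0.18, adjusted p = 0.0149) in KO and 0.77 (SE 0.18, adjusted p = 0.0130) in WT, with no overlap between stimulated and PBS libraries. Without any 1 of the 4 KO libraries the KO call was lost (adjusted p up to 0.0784), and the WT call did not hold without any 1 of the WT PBS libraries or without WT stimulated replicate 2 (up to 0.0708). Cdc45, Gins2, Gins3 and Mcm10, which binds the helicase and primase, had log2 fold changes between -0.34 and 0.28 over both responses. Gins2 shares 67.3% of its exon bases with Gse1 on the other strand, and the labels do not say whether strand was kept, so its reads cannot be told apart from those of Gse1.

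The polymerase genes were led by Pola2, the B subunit of the polymerase alpha and primase complex that starts each new strand. It had 20.5 and 20.8 CPM in stimulated KO, against 13.3 and 12.6 CPM with PBS. In WT it had 23.8 and 23.7 CPM after stimulation, against 13.4 and 13.0 CPM with PBS. The libraries of each group were nearly identical, and Pola2 rose by 0.67 (SE 0.09, adjusted p = 0.000999) in KO and by 0.85 (SE 0.09, adjusted p = 0.000324) in WT. The catalytic subunit of the same complex, Pola1, was not called and had negative log2 fold changes of -0.20 (SE 0.18) in KO and -0.45 (SE 0.18) in WT. Pole2, a subunit of the leading-strand polymerase epsilon, had 3.75 and 3.06 CPM in stimulated WT, against 5.55 and 4.90 CPM with PBS, and fell by 0.62 on the log2 scale (SE 0.17, adjusted p = 0.0253). In KO it had 3.51 and 3.79 CPM after stimulation, against 4.66 and 5.06 CPM with PBS, and was not called (-0.41, SE 0.17, adjusted p = 0.0982). The WT call for Pole2 did not hold without any 1 of the WT PBS libraries or without WT stimulated replicate 2 (adjusted p up to 0.125), and with only the 2 groups compared in the fit (adjusted p = 0.0669). The primase subunits Prim1 and Prim2 and the epsilon catalytic subunit Pole were called in neither response.

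Pcna, the sliding clamp, had the highest level in every group. It had 135.5 and 113.3 CPM in stimulated KO, against 163.4 and 160.7 CPM in KO with PBS. In WT libraries the levels were 159.3 and 176.8 CPM after stimulation, against 208.7 and 188.4 CPM with PBS. The stimulated libraries were below the PBS libraries in both genotypes, as for 37.2% of all tested genes in KO and 36.6% in WT. Pcna was called in KO alone, with a log2 fold change of -0.38 (SE 0.11, adjusted p = 0.0273), against -0.24 (SE 0.11, adjusted p = 0.117) in WT. The KO call did not hold without any 1 of the KO PBS libraries or without KO stimulated replicate 2 (adjusted p up to 0.154), and the difference between the responses was -0.14 (SE 0.15, adjusted p = 0.81). Of the clamp loader, which opens the PCNA ring, Rfc5 fell in WT, with 12.6 and 13.9 CPM after stimulation, against 16.2 and 18.1 CPM with PBS (-0.37, SE 0.11, adjusted p = 0.0309). That call was lost without any 1 library other than WT stimulated replicate 2 (adjusted p up to 0.16). Rfc5 shares 10.7% of its exon bases with Wsb2, which had 121 and 129 CPM in stimulated WT, against 260 and 259 CPM with PBS, and the part of Wsb2 in the Rfc5 result was not tested. Rfc1, Rfc2, Rfc3 and Rfc4 had log2 fold changes between -0.30 and 0.32 and no call.

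For the genes that bind single strands and join the lagging strand, Rpa2 was the one that rose. This subunit of replication protein A, which coats single-stranded DNA, had 15.7 and 14.5 CPM in stimulated KO, against 8.27 and 7.95 CPM with PBS. In WT it had 14.2 and 13.9 CPM after stimulation, against 8.92 and 9.81 CPM with PBS. The groups were well separated, with increases of 0.90 (SE 0.11, adjusted p = 0.000687) in KO and 0.58 (SE 0.11, adjusted p = 0.00467) in WT. Rpa1, the large subunit, was not called (0.20, SE 0.23, in KO and 0.07, SE 0.23, in WT). Lig1, the ligase that seals Okazaki fragments, had 14.4 and 14.3 CPM in stimulated WT, against 17.9 and 18.02 CPM with PBS, and fell by 0.32 on the log2 scale (SE 0.09, adjusted p = 0.0255). The Lig1 call was lost without any 1 of the 4 WT libraries (adjusted p up to 0.103), and in KO Lig1 was not called (-0.11, SE 0.09). Fen1, the flap endonuclease, was scattered between libraries, with 24.9 and 8.47 CPM in stimulated WT and 11.1 and 25.98 CPM in WT with PBS. In KO Fen1 had 14.6 and 14.8 CPM after stimulation, against 35.1 and 33.9 CPM with PBS, which did not pass (-1.23, SE 0.54, adjusted p = 0.115). The antisense gene Gm10143 covers 78.8% of the Fen1 exon bases.

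In nucleotide synthesis, Rrm2 was the called member. It encodes the small subunit of ribonucleotide reductase, which makes deoxynucleotides and is known to peak in S phase, and lies on chromosome 12 (GRCm38) at 24708241 to 24714146, plus strand. Rrm2 had 2.85 and 2.17 CPM in stimulated WT, against 5.83 and 4.93 CPM in WT with PBS, a log2 fold change of -1.10 (SE 0.20, adjusted p = 0.00411). In KO it had 6.97 and 6.33 CPM after stimulation, against 8.12 and 6.81 CPM with PBS, with no call (-0.17, SE 0.19, adjusted p = 0.535). The stimulated WT libraries were the lowest of the 8. The difference between the responses, 0.93 (95% interval 0.29 to 1.58), did not pass over all genes (adjusted p = 0.254), so the responses are not shown to differ. Rrm1, the large subunit, stayed between 25.2 and 29.1 CPM in all 8 libraries. Tyms, which makes thymidylate, Tk1, the thymidine kinase of S phase, and Dut, which removes dUTP, had log2 fold changes between -0.42 and 0.46 over both responses, with no call.

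Of the 4 genes for chromatin assembly and maintenance, Uhrf1 rose in KO. It encodes a protein that guides DNA methylation at replicated sites and had 7.91 and 7.47 CPM in stimulated KO, against 5.53 and 5.16 CPM with PBS (0.52, SE 0.15, adjusted p = 0.0308). The WT values were 5.69 and 4.73 CPM after stimulation, against 4.42 and 4.001 CPM with PBS, which did not pass (0.31, SE 0.15, adjusted p = 0.154). The KO call was lost without any 1 of the 4 KO libraries (adjusted p up to 0.137) and with no composition factor (adjusted p = 0.0702). Chaf1a and Chaf1b, subunits of the histone chaperone CAF-1, and Slbp, which binds histone mRNA, had log2 fold changes between -0.16 and 0.28 and no call. Chaf1a shares 52.5% of its exon bases with Ubxn6.

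**Figure D4:**
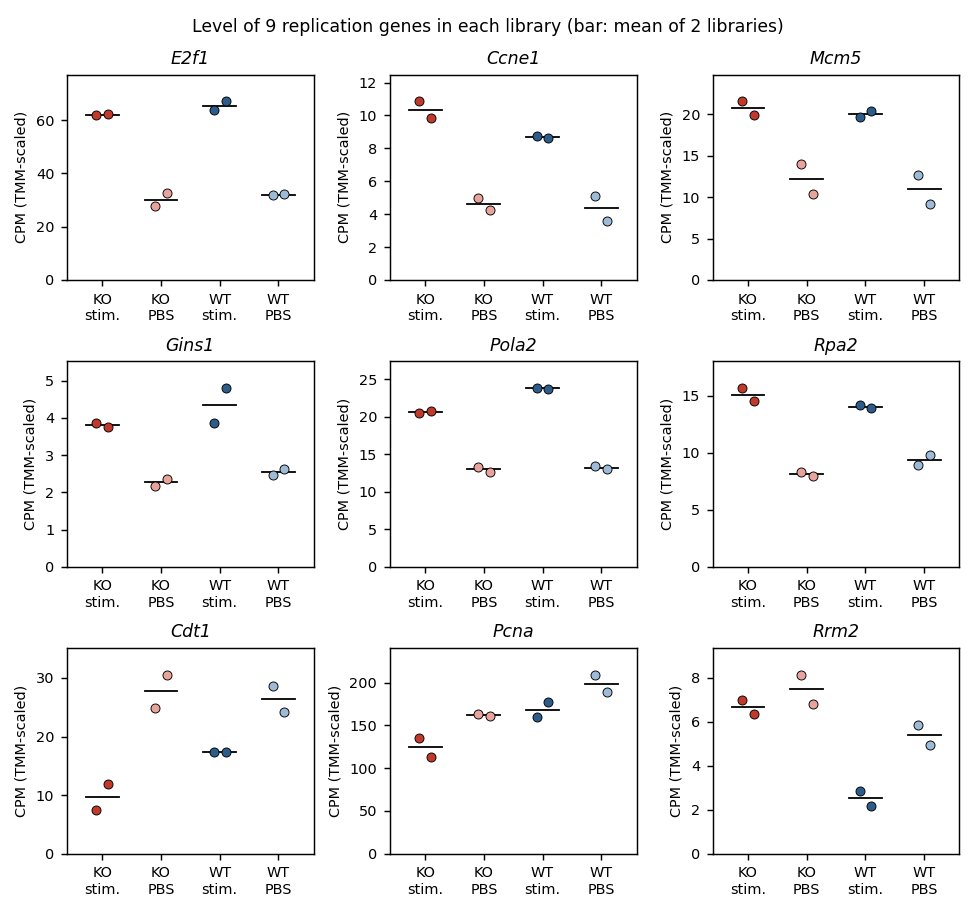
CPM of called members in each library, with stimulated groups left of PBS groups and KO left of WT. Points are libraries and short lines are group means. E2f1 and Ccne1 are high in both stimulated groups, and Rrm2 is low in stimulated WT only.

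Between genotypes with PBS, no member was called, against 1.20% of all tested genes called higher and 0.355% called lower in KO. At an unadjusted p under 0.05, 3 members differed (2 higher, 1 lower). The share of all tested genes at that cutoff is not given here, so nothing is read from the 3. DESeq2 called 0 members. After stimulation 2 members were higher in KO and 0 lower, against 2.91% and 2.01% of all tested genes. Rrm2 had 6.97 and 6.33 CPM in stimulated KO, against 2.85 and 2.17 CPM in stimulated WT, a 2.65-fold higher level (log2 1.40, SE 0.20, adjusted p = 0.0131). Without either stimulated KO library or WT stimulated replicate 2, the Rrm2 call was lost (adjusted p up to 0.0864). Pole, the catalytic subunit of polymerase epsilon, had 5.55 and 4.81 CPM in stimulated KO, against 3.25 and 2.77 CPM in stimulated WT (log2 0.78, SE 0.17, adjusted p = 0.0474). The Pole call was lost without any 1 of the 8 libraries (adjusted p up to 0.24) and with only the 2 groups compared in the fit (adjusted p = 0.108). Without a composition factor the all-gene median in this comparison was 0.127, and Rrm2 and Pole were again the members called.

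Over both treatments, 2 members were higher and 1 was lower in KO, against 4.82% and 2.91% of all tested genes. All 4 KO libraries lay above all 4 WT libraries for 4 members, against 2.97% of all tested genes, and below for 0, against 1.99%. Rrm2 also lay higher in KO with PBS, at 8.12 and 6.81 CPM, against 5.83 and 4.93 CPM in WT, so that all 4 KO libraries were above all 4 WT libraries. Its difference over both treatments was 0.94 (SE 0.14, adjusted p = 0.0115) and was called without each library in turn, with an adjusted p of 0.0499 at the highest. Pole differed by 0.53 (SE 0.12, adjusted p = 0.0425), a call lost without any 1 library (adjusted p up to 0.148). Pcna was lower in KO, by -0.36 on the log2 scale (SE 0.07, adjusted p = 0.0349). The Pcna call was lost without any 1 library other than KO stimulated replicate 1 (adjusted p up to 0.109). With no composition factor it was lost too (adjusted p = 0.0607), and 4 members were then higher (Pole, Rrm2, Uhrf1 and Ccne2) and 0 lower.

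Markers of stromal cells moved with these genotype differences, as did the macrophage marker sum, mainly through Lyz2. The 10 fibroblast and stromal markers, all detected, summed to 403.9 and 363.7 CPM in stimulated KO, against 146.5 and 142.6 CPM in stimulated WT. With PBS they summed to 300.7 and 318.1 CPM in KO, against 194.3 and 216.1 CPM in WT. After stimulation 8 of the 10 were called higher in KO, against 2.91% of all tested genes. Among them Col1a1 had 119 and 108 CPM in stimulated KO, against 45.7 and 44.4 CPM in stimulated WT, whereas Lum and Thy1 reached at most 1.29 CPM. B and plasma cell markers summed to 3.58 and 3.74 CPM in stimulated KO, against 0.800 and 0.723 CPM in stimulated WT. With PBS that sum was 2.55 and 2.58 CPM in KO, against 0.414 and 0.557 CPM in WT. The part of these markers in the results for Rrm2, Pole and Pcna was not tested. Neutrophil markers moved with stimulation instead, summing to 33.7 and 30.4 CPM in stimulated KO, against 6.16 and 6.18 CPM with PBS. In WT they summed to 28.1 and 35.5 CPM after stimulation, against 4.04 and 4.24 CPM with PBS, mostly from S100a8, and Ly6g was at 0 in all libraries. T and NK cell markers summed to 6.33 and 6.89 CPM in stimulated KO, against 16.2 and 21.2 CPM with PBS, and to 7.97 and 6.504 CPM in stimulated WT, against 16.8 and 15.1 CPM with PBS. Most of that sum was Cd4, and Cd3e was at 0 throughout. Mast cell and basophil markers summed to 0.742 and 0.989 CPM in stimulated KO and to 0.204 CPM at most in the other libraries, with Mcpt4 at 0 throughout. The part of these markers in the responses and the genotype differences was not tested. Summed erythroid and megakaryocyte markers lay between 17.3 and 23.95 CPM, and progenitor markers between 1.13 and 1.67 CPM, with Flt3 at 0 throughout. The nuclear transcripts Malat1, Neat1 and Kcnq1ot1 summed to 396.7 to 901.5 CPM, and none of them was called in any of these comparisons.

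Other genes of the pathway were described by their counts, to be set beside the 19.0 to 20.6% of all tested genes called in either direction of either response. Of 15 other origin and firing factors, 2 rose and 1 fell in KO, and 2 rose and 3 fell in WT. Orc4, an origin recognition subunit, rose by 0.37 (SE 0.09, adjusted p = 0.0131) in KO and 0.61 (SE 0.09, adjusted p = 0.00132) in WT. Of 20 table rows for 19 other fork genes, 3 rose and 1 fell in KO, and 4 rose and 1 fell in WT. Timeless, a fork protection factor, had 11.2 and 9.59 CPM in stimulated KO, against 1.89 and 1.46 CPM with PBS. In WT Timeless had 11.1 and 8.43 CPM after stimulation, against 2.13 and 2.15 CPM with PBS. It rose by 2.64 (SE 0.21, adjusted p = 9.87e-05) in KO and 2.19 (SE 0.21, adjusted p = 0.000218) in WT, more than any member of the module. Pole4, a small epsilon subunit, rose by 1.21 (SE 0.15, adjusted p = 0.000788) in KO and 0.91 (SE 0.15, adjusted p = 0.00273) in WT. Of 6 other chromatin and checkpoint genes, 2 rose and 1 fell in KO and 2 rose in WT, with Asf1a, a histone chaperone, up by 0.73 (SE 0.14, adjusted p = 0.00591) in KO and 0.89 (SE 0.14, adjusted p = 0.00243) in WT.

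Several nucleotide genes outside the module rose in both genotypes. Of 12 such genes, 5 rose and 1 fell in KO, and 4 rose and 1 fell in WT. Dck, the deoxycytidine kinase of the salvage pathway, had 144 and 143 CPM in stimulated KO, against 29.1 and 32.7 CPM with PBS. In WT Dck had 165 and 173 CPM after stimulation, against 27.9 and 32.5 CPM with PBS. The rise was 2.21 (SE 0.10, adjusted p = 7.85e-06) in KO and 2.48 (SE 0.10, adjusted p = 5.13e-06) in WT. Samhd1, which degrades deoxynucleotide triphosphates in myeloid cells, had 684 and 672 CPM in stimulated KO, against 304 and 365 CPM with PBS. Its WT levels were 800 and 830 CPM after stimulation, against 318 and 357 CPM with PBS. Ctps, a CTP synthase, rose by 1.08 (SE 0.17, adjusted p = 0.00255) in KO and 0.90 (SE 0.17, adjusted p = 0.00566) in WT.

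Regulators that act on E2F targets moved in both directions. Of the 12 other E2F and RB family genes, 1 rose and 2 fell in KO, and 3 rose and 6 fell in WT. E2f2, an activating E2F like E2f1, had 3.84 and 3.04 CPM in stimulated KO, against 13.6 and 13.8 CPM with PBS, and fell by 1.99 on the log2 scale (SE 0.15, adjusted p = 7.83e-05). In WT E2f2 had 2.84 and 3.18 CPM after stimulation, against 10.6 and 10.8 CPM with PBS (-1.82, SE 0.15, adjusted p = 0.000119). E2f1 and E2f2 thus moved in opposite directions in both genotypes. Of 16 cyclins, CDKs and CDK inhibitors of G1 and S, 3 rose and 7 fell in KO, and 4 rose and 6 fell in WT. The CDK inhibitor Cdkn1c fell by 3.67 (SE 0.14, adjusted p = 4.03e-06) in KO and 2.77 (SE 0.14, adjusted p = 1.08e-05) in WT on the log2 scale. Another inhibitor, Cdkn1a, had 312 and 311 CPM in stimulated KO, against 151 and 168 CPM with PBS, and rose by 0.96 (SE 0.08, adjusted p = 9.02e-05). In WT Cdkn1a also lay higher, at 243 and 254 CPM after stimulation, against 177 and 190 CPM with PBS. The D-type cyclins Ccnd1 and Ccnd2 moved in opposite directions, each the same way in both genotypes. In KO the log2 fold change of Ccnd1 was -1.70 (SE 0.15, adjusted p = 0.000179). Ccnd1 was also lower in WT, at 6.856 and 8.259 CPM after stimulation, against 14.84 and 14.03 CPM with PBS. For Ccnd2 the log2 fold change was 2.39 (SE 0.25, adjusted p = 0.000349) in WT. Ccnd2 was also higher in KO, at 12.01 and 12.97 CPM after stimulation, against 3.745 and 2.755 CPM with PBS. Myc fell in WT by 1.84 on the log2 scale (SE 0.19, adjusted p = 0.000316). It was also lower in KO, at 2.88 and 2.36 CPM after stimulation, against 6.62 and 7.40 CPM with PBS.

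Among genes of G2 and mitosis, decreases were more frequent than increases. Of 20 such genes, 1 rose and 6 fell in KO, and 2 rose and 15 fell in WT, with median log2 fold changes of -0.485 in KO and -1.014 in WT. Cenpa, the centromeric histone, had 1.54 and 1.76 CPM in stimulated KO, against 40.2 and 31.5 CPM with PBS. In WT Cenpa had 0.728 and 0.620 CPM after stimulation, against 43.3 and 34.7 CPM with PBS. Mki67, a marker of cycling cells, moved the other way, with 93.0 and 92.8 CPM in stimulated KO, against 39.7 and 31.4 CPM with PBS, and rose by 1.38 (SE 0.24, adjusted p = 0.00364). Its WT levels were also higher after stimulation, at 61.6 and 40.9 CPM, against 27.3 and 19.5 CPM with PBS. After stimulation 8 of the 20 genes were higher in KO than in WT and 0 were lower, against 2.91% and 2.01% of all tested genes. Their median was 1.043, while 2 of the 41 replication genes were called higher, with a median of 0.081. Ube2c, a ubiquitin-conjugating enzyme of mitotic exit, had 2.01 and 1.43 CPM in stimulated KO, against 0.345 and 0.533 CPM in stimulated WT (1.96, SE 0.32, adjusted p = 0.0209). Kif20a, a mitotic kinesin, had 3.15 and 3.61 CPM in stimulated KO, against 0.909 and 1.34 CPM in stimulated WT (1.58, SE 0.24, adjusted p = 0.018). Ccna2, the cyclin A of S phase and G2, was also higher in KO after stimulation, at 4.34 and 3.18 CPM, against 0.782 and 1.20 CPM in WT (1.92, SE 0.30, adjusted p = 0.0201). The count of 8 rested on single libraries and on the fit, in checks chosen after the data were seen. It was 0 with only the 2 groups compared and without KO stimulated replicate 1, 1 without KO stimulated replicate 2, 2 without WT stimulated replicate 1 and 4 without WT stimulated replicate 2. It was 4 of 12 with a filter of 5 CPM, 12 without a composition factor and 14 in DESeq2, and 0 genes were lower in any of these. For the difference between the responses edgeR called 0 of the 20 mitotic genes, DESeq2 called 3 higher, and 1 was called without WT stimulated replicate 2. At an unadjusted p under 0.05 there were 11, all higher in KO. The share of all tested genes at that cutoff is not given here, so nothing is read from the 11. The median difference, which has no test, was 0.787. The stromal and B cell marker sums given above, and the macrophage sum, which differed mainly through Lyz2, stand beside these genotype differences too. Their part in them was not tested.

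**Figure D5:**
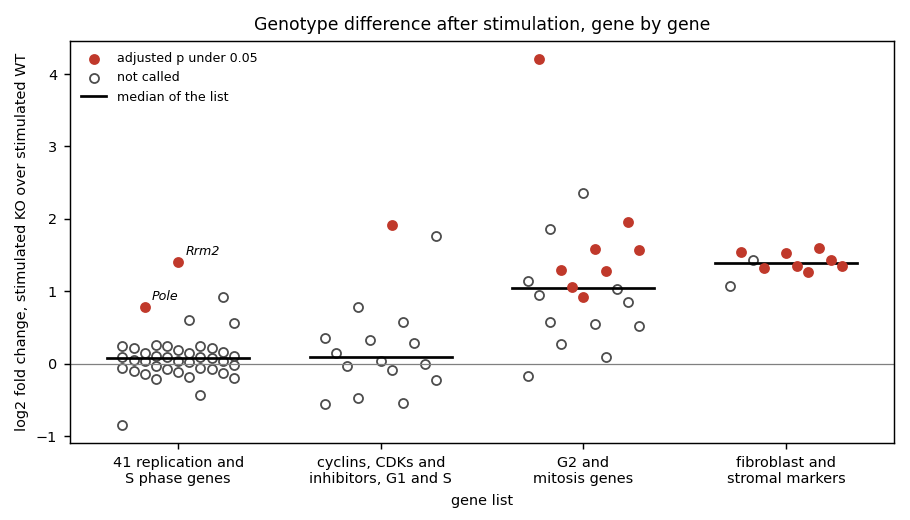
Log2 fold change of stimulated KO over stimulated WT for each gene of 4 lists, one point per gene, with called genes marked. The replication members centre near 0, with a median of 0.081, while the G2 and mitosis genes have a median of 1.043 and the stromal markers one of 1.394.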

How the data were processed

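RNA of 8 BMDM libraries (4 groups of 2) was sequenced. The deposited table holds whole-number counts per gene, used as deposited. Trimmomatic, Bowtie2, edgeR and mm10 are named per the submitters' processing notes. How genes were counted, and with which annotation, is not given in the sources used here. Totals were 55032057 to 65487739 counts, with composition factors (TMM) of 0.888 to 1.07. The labels give nigericin for 3 h, and the series text also mentions 1 h.

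Genes kept by filterByExpr (minimum count 10, minimum total 15; 17470 genes with 99.98% of the counts) were fitted in edgeR 4.0.16 (R 4.3.3) over all 8 libraries, with 1 coefficient per group, 4 residual degrees of freedom, quasi-likelihood F tests and Benjamini-Hochberg adjustment at 0.05 within each contrast. The SE is the unshrunk log2 fold change divided by the square root of F. Checks on simulated counts followed the main fit, from which they took levels and spread, and preceded the alternatives. Alternatives included DESeq2 1.42.0. Figures used matplotlib 3.10.9 in Python 3.11.15. Exon lengths and overlaps came from the GENCODE annotation of GRCm38, and promoters from RefSeq.

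The members and the lists were chosen with earlier results of these data known. Named were all 41 members, Mettl3 and, of each other list, up to 3 called genes with the smallest adjusted p per contrast. Marker genes, and genes sharing exon bases with a member, were named beyond that rule.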

Additional observations from a re-analysis of the deposited data

Results flagged for a closer look

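Cd14, the LPS co-receptor and one of the macrophage markers, responded differently in the genotypes by a test of the difference itself. It had 1416 and 1347 CPM in stimulated KO, against 689.8 and 577.9 CPM in KO with PBS. In WT it had 1074 and 1118 CPM after stimulation, against 1121 and 1081 CPM with PBS. The difference of the responses was 1.13 on the log2 scale (SE 0.13, adjusted p = 0.0225 in edgeR's quasi-likelihood test). Col3a1, a collagen gene among the stromal markers, had 51.0 and 50.0 CPM in stimulated KO, against 38.0 and 38.3 CPM in KO with PBS. In WT Col3a1 had 16.9 and 16.6 CPM after stimulation, against 22.5 and 25.6 CPM with PBS. The difference of its responses was 0.93 (SE 0.12, adjusted p = 0.0411).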

How the results depend on the processing

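The calls for Cdt1, Pola2, Rpa2, Ccne1 and E2f1 in KO, and for Pola2, Rpa2, Rrm2, Ccne1 and E2f1 in WT, held under all 7 alternatives and without each library in turn, and no called gene changed direction. The median of the members in KO, which has no test, changed sign under 4 settings, lying between -0.06 and -0.013 there. With no composition factor, members lower were 5 in KO and 13 in WT, members over both treatments were 4 higher and 0 lower in KO, and all genes called were 1044 higher after stimulation and 1380 higher and 288 lower over both treatments. A filter of 5 CPM in 2 libraries left 31 members, with 4 lower in KO and 1 higher in KO than WT after stimulation. With no filter beyond 1 count, 3 members were lower in WT, 1 was higher in KO after stimulation and 1 over both treatments. Fitting only the groups compared gave 3 members lower in WT and 1 higher in KO after stimulation, and all genes called were 33 higher and 12 lower with PBS and 300 higher and 203 lower after stimulation. DESeq2 gave 4 members lower in KO and 2 lower in KO than WT after stimulation (Cdt1 and Pcna). Its counts over all genes were 572 higher and 304 lower with PBS, 943 and 711 after stimulation, 192 and 294 for the difference of the responses, and 936 lower over both treatments, against 209 and 62, 508 and 352, 18 and 69, and 509 in edgeR. The cause of these shifts was not tested.

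Libraries with the same replicate number showed no strong shared shift, as correlations between groups of replicate 1 minus replicate 2 lay between -0.015 and 0.101. The labels do not say whether the numbers pair the samples, and these correlations cannot settle it. With the replicate number as a block, 1 member was higher in KO after stimulation, in place of 2, as Pole was lost (0.78, adjusted p = 0.0538 by edgeR).

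Leaving out each library in turn leaves 1 group with a single library, assumed to vary like the others. Members called then ranged from 4 to 8 higher and 1 to 3 lower in KO, and from 4 to 7 higher and 1 to 5 lower in WT. Between genotypes they ranged from 0 to 0 in both directions with PBS and for the difference of the responses, 0 to 1 higher and 0 to 1 lower after stimulation, and 1 to 1 higher and 0 to 1 lower over both treatments. All genes called ranged from 2582 to 3616 higher and 2379 to 3467 lower in KO, and from 2748 to 3474 higher and 2520 to 3270 lower in WT. They ranged from 56 to 196 higher and 17 to 68 lower with PBS, 80 to 356 and 76 to 263 after stimulation, 5 to 31 and 15 to 68 for the difference, and 335 to 644 and 173 to 399 over both treatments. With 2 libraries a group, single libraries decided calls of small and of larger differences, such as Rfc5 at -0.37 and Pole at 0.78, while Rpa2 at 0.58 held.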

Other observations

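Chtf8, one of the other fork genes, is listed under 2 gene IDs whose counts alternate between libraries. Under ENSMUSG00000046691 it had 55.6 and 7.81 CPM in stimulated KO and 4.78 and 48.0 CPM in stimulated WT. Under ENSMUSG00000117748 it had 1.48 and 51.9 CPM in stimulated KO and 40.9 and 1.76 CPM in stimulated WT. Neither ID was called in a comparison. Tk1 had 9.75 and 4.44 CPM in the KO libraries with PBS, the largest ratio between libraries of a group among the 41 members after that of Fen1.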
